A study of Homo sapiens with 6 samples.

Results

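The genes described here carry glucose into the cell, break it down to lactate or send it into the pentose phosphate pathway. They were chosen by name as the rows of both deposited tables whose gene ID maps to 31 listed symbols, out of 62111 genes in all. RNA was sequenced from K562 cells, an established human line grown out of a chronic myeloid leukaemia. There were 3 libraries from K562 cells with the substitution K700E in SF3B1 and 3 from K562 cells with wild-type SF3B1 (WT). SF3B1 is a subunit of the U2 snRNP, which binds the branch point of introns, and K700E is a recurrent substitution in blood cancers. No treatment or time is given for either group. The labels do not say how the substitution was introduced, whether 1 clone was used, or whether replicates were separate cultures, so the p-values cover library-to-library spread alone, which may be technical.

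Glucose enters cells through carriers of the SLC2A family and is trapped by hexokinases. Upper glycolysis spends ATP to split the sugar, lower glycolysis regains ATP while making pyruvate, and lactate dehydrogenase turns pyruvate into lactate, which leaves through SLC16A carriers. The pentose phosphate pathway branches off after hexokinase and supplies NADPH and ribose. Leukaemia lines such as K562 grow with high glucose use, and many of these genes are known targets of the hypoxia-inducible factors and MYC.

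The values are TPM, reads per base of gene length scaled to the same total in every library, so levels can be compared between genes. Recovered reads came to 111628565, 123015114 and 126480630 in K700E libraries and 104642332, 133602057 and 136588117 in WT libraries. The 15493 genes averaging 1 TPM or more were tested with limma on log2(TPM + 1), and a gene was called at a Benjamini-Hochberg adjusted p under 0.05 over all of them. All 8 genes of a K562 identity list were detected, with a summed level of 4263 to 8600 TPM in K700E and 3444 to 5748 TPM in WT. Of 5 lymphoid markers, CD3D was called higher in K700E (194 to 360 TPM, against 97.0 to 103 TPM in WT; adjusted p = 0.0289), while the defining markers MS4A1 and CD79A stayed at 0 to 0.441 TPM in every library. Their summed level was 198 to 365 TPM in K700E and 101 to 107 TPM in WT. Of 5 stromal and epithelial markers, summing to 201 to 276 TPM in K700E and 154 to 254 TPM in WT, COL1A2 was called higher (2.38 to 5.94 TPM in K700E, 0.0341 to 0.0476 TPM in WT; adjusted p = 0.0168). COL1A2 was tested at all only through its K700E level, since its WT mean was under 1 TPM. Most of the sum came from KRT19 (141 to 211 TPM in K700E, 73.5 to 208 TPM in WT) and EPCAM (48.8 to 62.3 TPM in K700E, 43.4 to 78.9 TPM in WT). Neither was called. Of 5 monocyte and granulocyte markers, summing to 68.0 to 184 TPM in K700E and 120 to 138 TPM in WT, none was called. The part of other cell types in the results was not tested. WT replicate 3 mostly lay between WT replicates 1 and 2. It was the middle WT library in 76.6% of 15066 genes, against 9.7% for replicate 1 and 13.7% for replicate 2. Without WT replicate 3 limma called 0 genes, with 5 of the 30 members at an unadjusted p under 0.05.

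The clearest difference was in glucose transport. SLC2A3, which encodes the high-affinity glucose carrier GLUT3, rose about 2.04-fold in K700E cells, and its near copy SLC2A14 (GLUT14) rose with it. They were the only members called out of 30 tested (2 of 30, against 1.38% of all tested genes in either direction): 2 were called higher, against a background of 1.15% of all tested genes, and 0 were called lower, against 0.232%. By unadjusted p under 0.05 there were 7 of 30 members, against 16.5% of all tested genes. Of the members, limma-voom run on recovered reads put 2 higher and 0 lower. The remaining transporters, the glycolytic enzymes and the pentose phosphate enzymes gave no call.

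SLC2A3 and SLC2A14 are neighbours on the minus strand of chromosome 12 and share most of their coding sequence, so reads can be assigned to either. In GRCh37 coordinates of the deposited table, SLC2A3 (ENSG00000059804) lies at chr12:8071826-8088783 and SLC2A14 (ENSG00000173262) at chr12:7965108-8043744. In the GENCODE transcripts on GRCh38, their coding sequences are 1491 and 1494 bases long. Of 1491 aligned bases, 1443 (96.8%) are identical and 48 differ, and the longest identical run is 137 bases. The 2 pairs of stretches that follow show what separates them, with the differing bases in capitals. Stretches of 120 coding bases hold between 1 and 9 differences. The first pair has 3, the median, at coding bases 1078 to 1197 of SLC2A3 and 1081 to 1200 of SLC2A14.
SLC2A3: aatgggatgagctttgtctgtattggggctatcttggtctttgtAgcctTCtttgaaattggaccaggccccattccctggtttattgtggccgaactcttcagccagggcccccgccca
SLC2A14: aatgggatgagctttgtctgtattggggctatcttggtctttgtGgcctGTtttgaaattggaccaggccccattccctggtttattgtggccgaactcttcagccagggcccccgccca
The second pair has 9, the most found, at coding bases 478 to 597 of SLC2A3 and 481 to 600 of SLC2A14.
SLC2A3: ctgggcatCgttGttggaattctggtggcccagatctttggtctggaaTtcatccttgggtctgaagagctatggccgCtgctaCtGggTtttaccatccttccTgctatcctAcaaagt
SLC2A14: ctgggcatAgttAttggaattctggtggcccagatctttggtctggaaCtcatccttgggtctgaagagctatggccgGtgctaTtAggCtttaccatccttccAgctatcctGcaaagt
Over all SLC2A14 transcripts, 16.0% of the runs of 50 bases also occur in SLC2A3 transcripts, falling to 4.24% of runs of 100 bases and 1.03% of runs of 150 bases. How the authors' counting treated reads that match both genes is not given in the sources used here.

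SLC2A3 stood at 528, 499 and 406 TPM in K700E libraries, against 246, 227 and 231 TPM in WT libraries. Every K700E library was above every WT library, and the lowest K700E value was well clear of the highest WT value. The means were 478 ± 64.1 TPM in K700E and 235 ± 10.2 TPM in WT (SD, n = 3 each). The log2 difference was 1.01 (SE 0.13, 95% interval 0.70 to 1.33) with a limma adjusted p of 0.0191. The counts behind it were 81845 to 97398 reads in K700E and 40890 to 51202 reads in WT, so counting error is small beside the spread between libraries. In RNA from a whole culture, more RNA per cell and more cells with the RNA cannot be told apart.

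SLC2A14 had 14.2, 12.99 and 11.7 TPM in K700E libraries, against 6.47, 6.23 and 6.61 TPM in WT libraries. Again the groups did not overlap. The means were 12.9 ± 1.23 TPM in K700E and 6.44 ± 0.194 TPM in WT (SD, n = 3 each), a log2 difference of 0.90 (SE 0.14, 95% interval 0.57 to 1.24) with a limma adjusted p of 0.0330. SLC2A14 made up 2.61%, 2.54% and 2.80% of the summed TPM of the pair in K700E and 2.56%, 2.67% and 2.78% in WT. That share overlapped between groups (exact two-sided permutation p = 0.8, adjusted p = 0.945 over 13 shares). SLC2A14 is kept as its own gene in the counts given here, but reads of the pair cannot be told apart where the sequences match, so its call does not stand apart from that of SLC2A3. With the pair summed into 1 gene, 1 member of 29 was called, with a log2 difference of 1.01 and a limma adjusted p of 0.0189.

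The size of the SLC2A3 difference was steady, at 0.86 to 1.13 on the log2 scale over 18 alternative settings, but its call was not. Without WT replicate 3 the log2 difference was 1.00 and the limma adjusted p was 0.136. The adjusted p was also above the threshold without K700E replicate 1 (0.0634), without K700E replicate 2 (0.0742) and when genes of any level were tested (0.0693). Of the 6 libraries left out in turn, SLC2A14 lost its call without any of 5, with adjusted p from 0.0675 (without K700E replicate 3) to 0.196 (without WT replicate 3), and kept it only without WT replicate 1 (0.0499).

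**Figure D1:**
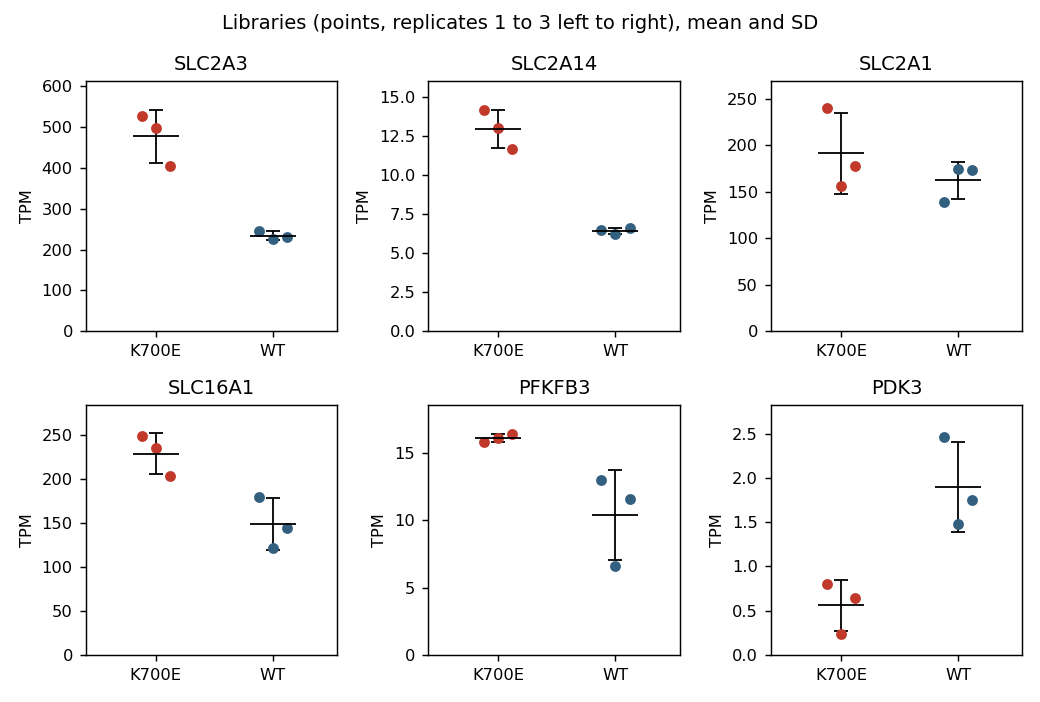
TPM of SLC2A3, SLC2A14, SLC2A1, SLC16A1, PFKFB3 and PDK3, with K700E left of WT; points are libraries, the horizontal mark is the group mean with its SD, and each panel has its own linear axis from 0. SLC2A3 and SLC2A14 show 3 K700E points far above 3 WT points, SLC16A1 and PFKFB3 show K700E above WT with a smaller gap, SLC2A1 overlaps, and PDK3 shows K700E below WT.

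SLC2A1 encodes GLUT1, the main glucose carrier of red cells and their precursors. It had 239.6, 156 and 178 TPM in K700E libraries, against 139, 175 and 173 TPM in WT libraries. The groups overlapped, since K700E replicate 2 lay below WT replicates 2 and 3, and the log2 difference of 0.22 had a limma adjusted p of 0.608. SLC2A3 made up 67.6%, 74.7% and 68.1% of the summed TPM of SLC2A1, SLC2A3 and SLC2A14 in K700E libraries, against 62.8%, 55.6% and 56.3% in WT libraries. These shares did not overlap (70.1% ± 3.96 in K700E, 58.2% ± 3.97 in WT, SD, n = 3 each; exact two-sided permutation p = 0.1, the smallest that 3 against 3 can give, adjusted p = 0.433 over 13 shares).

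SLC16A1 encodes MCT1, a carrier of lactate and pyruvate. It had 249, 235 and 204 TPM in K700E libraries, against 180.1, 122 and 144 TPM in WT libraries. The groups did not overlap, but the log2 difference of 0.63 (SE 0.17) did not pass the test (limma adjusted p = 0.132). After a correction for GC content, an alternative added after the data were seen, it did pass (adjusted p = 0.0329). SLC16A3 encodes MCT4, a lactate exporter of strongly glycolytic cells, and was barely expressed, at 1.42, 0.824 and 3.55 TPM in K700E and 0.798, 1.70 and 1.66 TPM in WT. Its groups overlapped and its log2 difference was 0.21 (limma adjusted p = 0.804).

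In upper glycolysis 9 members were tested and 0 were called, with a median log2 difference of 0.27, against 0.13 for all tested genes. HK1, the housekeeping hexokinase, had 423, 404 and 368 TPM in K700E libraries, against 367, 355 and 376 TPM in WT libraries. HK2, the inducible hexokinase of growing and tumour cells, had 83.3, 61.4 and 56.3 TPM in K700E libraries, against 54.9, 49.9 and 54.1 TPM in WT libraries. HK1 overlapped between groups and HK2 did not, although the lowest K700E value of HK2 was close to the highest WT value (limma adjusted p = 0.414). GPI, which converts glucose phosphate to fructose phosphate, had 228, 238 and 227 TPM in K700E and 278, 231 and 294 TPM in WT, and overlapped.

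Phosphofructokinase commits the sugar to glycolysis and is built from liver (PFKL), muscle (PFKM) and platelet (PFKP) type subunits. PFKM had 28.9, 24.6 and 23.2 TPM in K700E libraries, against 20.3, 16.6 and 18.9 TPM in WT libraries. All 3 K700E values of PFKM lay above all 3 WT values (25.6 ± 3.00 TPM in K700E, 18.6 ± 1.84 TPM in WT, SD, n = 3 each), and the log2 difference of 0.44 (SE 0.15) did not pass (limma adjusted p = 0.216). PFKL had 79.6, 108 and 145 TPM in K700E and 47.2, 122 and 99.7 TPM in WT. PFKP had 44.8, 41.3 and 47.7 TPM in K700E and 26.4, 46.6 and 40.6 TPM in WT. For both, WT replicate 1 was the lowest library of the 6, and the groups overlapped.

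Aldolase and triose phosphate isomerase split the sugar and interconvert the resulting trioses. ALDOC, an aldolase best known from brain, had 275, 299.7 and 312 TPM in K700E libraries, against 304, 139 and 272 TPM in WT libraries, a range in WT that spans nearly all K700E values. Of ALDOC exon bases, 17.2% are shared on the opposite strand with ENSG00000265168, listed at 0 in every library. Counting that ignores strand can drop or split reads there. ALDOA, the common aldolase, was listed at 8.59, 13.4 and 21.1 TPM in K700E and 4.68, 26.6 and 23.2 TPM in WT. That level is not a measure of the gene alone: in the deposited annotation, 70.4% of its exon bases are shared on the same strand with ENSG00000285043 and 87.6% are shared with another gene on either strand, and counting per gene can drop or split reads there. TPI1, the isomerase, had 993, 797 and 929 TPM in K700E libraries, against 717, 745 and 785 TPM in WT libraries. TPI1 did not overlap between groups, by a narrow gap, and did not pass the test (log2 difference 0.27, limma adjusted p = 0.328).

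**Figure D2:**
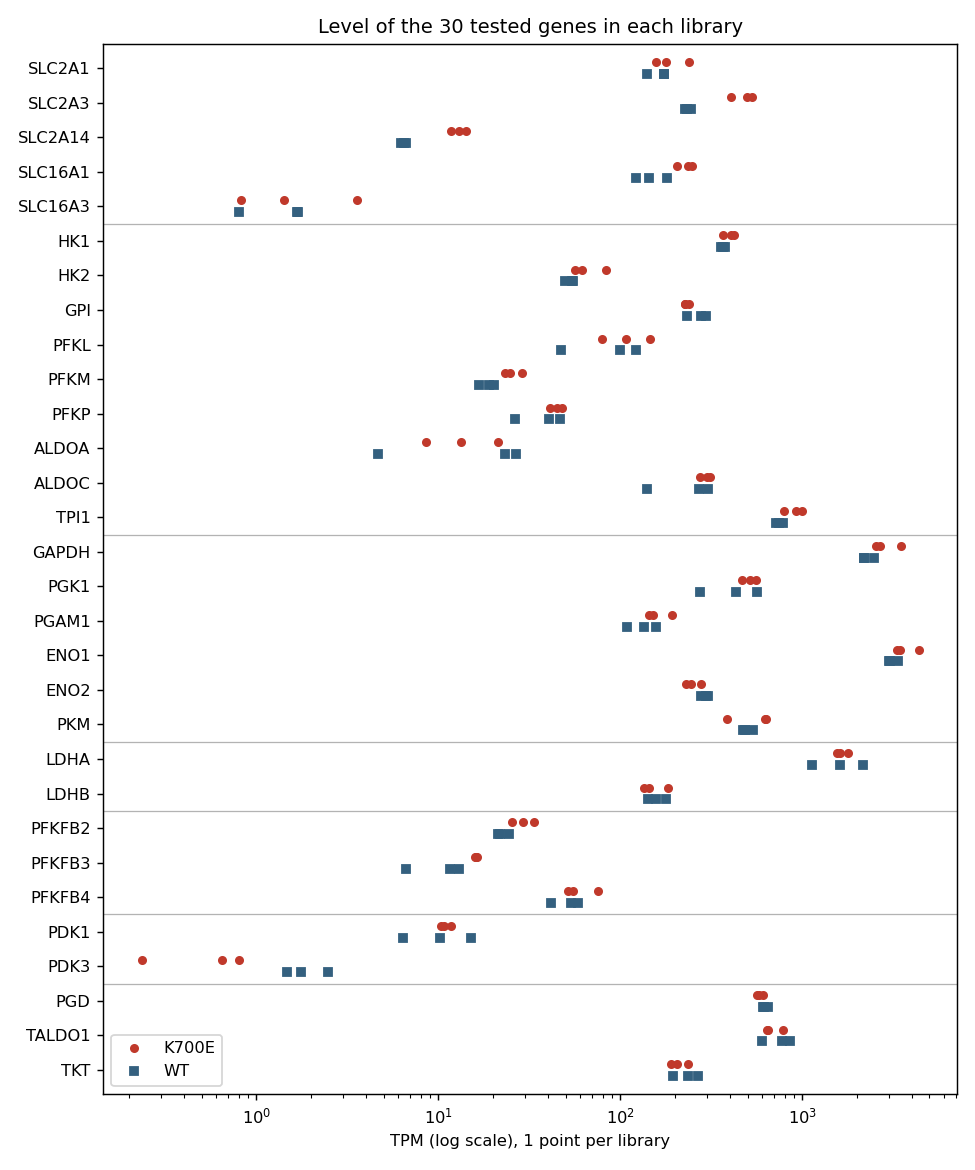
TPM of the 30 tested members in each library on a log axis, grouped by role; red circles are K700E libraries and blue squares WT libraries, 1 point each. ENO1 and GAPDH are the highest in every library, PDK3 and SLC16A3 lie below 4 TPM, and the points of most members overlap between groups.

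Lower glycolysis held the most abundant members, and 0 of its 6 were called (median log2 difference 0.26). ENO1, the common enolase, had 4359.6, 3447 and 3302 TPM in K700E libraries, against 3047, 2981 and 3341 TPM in WT libraries, and overlapped through 1 library of each group. GAPDH, which oxidises glyceraldehyde phosphate, had 3508, 2541 and 2679 TPM in K700E libraries, against 2182, 2181 and 2491 TPM in WT libraries. All K700E libraries of GAPDH were above all WT libraries, but K700E replicate 1 stood far above the rest (2909 ± 523 TPM in K700E, 2284 ± 179 TPM in WT, SD, n = 3 each), and its log2 difference of 0.34 (SE 0.15) did not pass (limma adjusted p = 0.319). GAPDH also has 65 processed pseudogenes in the table, whose summed TPM was at most 0.491% of its own. In the deposited annotation, 25.8% of GAPDH exon bases are shared on the opposite strand with ENSG00000269968, listed at 0 in every library. Counting that ignores strand can drop or split reads there.

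ENO2, an enolase best known from neurons, went the other way. It had 229, 277 and 245 TPM in K700E libraries, against 297, 279 and 304 TPM in WT libraries. The groups were separated by a narrow gap and the difference did not pass (log2 difference -0.23, limma adjusted p = 0.396). As a share of summed enolase TPM, ENO2 made up 4.98%, 7.44% and 6.90% in K700E and 8.89%, 8.55% and 8.33% in WT, with no overlap (exact two-sided permutation p = 0.1, adjusted p = 0.433 over 13 shares).

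PGK1, which makes ATP by transferring a phosphate, had 560.1, 514 and 468 TPM in K700E libraries, against 567, 276 and 433 TPM in WT libraries. PGAM1, a phosphoglycerate mutase, had 192, 143 and 150.3 TPM in K700E and 157, 109 and 134 TPM in WT. PKM, the pyruvate kinase of most dividing cells, had 622, 387 and 632 TPM in K700E and 474, 483 and 534 TPM in WT. All 3 overlapped between groups, with WT replicate 2 lowest for PGK1 and PGAM1, and K700E replicate 2 lowest for PKM. Pseudogenes of PGAM1 (13 in the table) summed to at most 3.11% of its TPM, the largest such share of any member.

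Lactate dehydrogenase interconverts pyruvate and lactate. LDHA, the form common in glycolytic tissue, had 1774, 1561 and 1603 TPM in K700E libraries, against 2169.6, 1125 and 1616 TPM in WT libraries. LDHB, the form common in heart, had 183, 144 and 135 TPM in K700E and 178, 142 and 156 TPM in WT. WT replicates 1 and 2 enclosed all 3 K700E values of LDHA, and LDHB overlapped as well. The log2 differences were 0.06 for LDHA (limma adjusted p = 0.926) and -0.05 for LDHB (limma adjusted p = 0.911). For LDHB, 56.2% of exon bases are shared on the same strand with ENSG00000285854, which was listed at 0 in every library but WT replicate 3, where it had 0.00459 TPM. As for ALDOA, counting per gene can drop or split reads there. The level of LDHB, and its share of lactate dehydrogenase TPM, may therefore not measure the gene alone.

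The PFKFB enzymes make and remove the fructose bisphosphate that activates phosphofructokinase. PFKFB3, the inducible form, had 15.8, 16.1 and 16.4 TPM in K700E libraries, against 12.998, 6.62 and 11.6 TPM in WT libraries. The K700E libraries were nearly level and all above WT, where replicate 2 was low (16.1 ± 0.282 TPM in K700E, 10.4 ± 3.35 TPM in WT, SD, n = 3 each), with a log2 difference of 0.63 (SE 0.24) that did not pass (limma adjusted p = 0.246). PFKFB2, best known from heart, had 33.3, 29.02 and 25.3 TPM in K700E libraries, against 24.4, 21.2 and 21.9 TPM in WT libraries. PFKFB2 also separated by a narrow gap (log2 difference 0.36, SE 0.15, limma adjusted p = 0.296). PFKFB4 had 51.3, 55.2 and 75.02 TPM in K700E and 53.8, 41.6 and 58.2 TPM in WT, and overlapped.

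Pyruvate dehydrogenase kinases switch off the enzyme that feeds pyruvate into mitochondria. PDK3 had 0.798, 0.235 and 0.644 TPM in K700E libraries, against 2.46, 1.48 and 1.76 TPM in WT libraries. All K700E values were below all WT values, with 157 to 466 reads per K700E library and 1116 to 1396 reads per WT library. The means were 0.559 ± 0.291 TPM in K700E and 1.90 ± 0.506 TPM in WT (SD, n = 3 each). The log2 difference was -0.90 (SE 0.21, 95% interval -1.38 to -0.42) with a limma adjusted p of 0.0959, so PDK3 was not called. At this level the size depends on the scale: it was -1.69 with a pseudocount of 0.1, -0.31 with a pseudocount of 5 and -1.95 by limma-voom on recovered reads, with adjusted p of 0.120, 0.108 and 0.0688. PDK3 was tested at all only through its WT level, since its K700E mean was under 1 TPM. After the GC correction PDK3 was called lower (log2 difference -1.02, limma adjusted p = 0.0341). PDK1, a target of the hypoxia-inducible factors, had 11.7, 10.7 and 10.4 TPM in K700E and 15.1, 6.36 and 10.2 TPM in WT, and overlapped.

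The 3 pentose phosphate enzymes on the list were level between genotypes within their spread, and all 3 had a log2 difference below 0. PGD, which produces NADPH, had 579, 564 and 608 TPM in K700E libraries, against 619, 605 and 648 TPM in WT libraries. TALDO1, transaldolase, had 642, 652 and 782 TPM in K700E and 601, 859 and 776 TPM in WT. TKT, transketolase, had 189, 205 and 234 TPM in K700E and 194, 236 and 266 TPM in WT. The groups overlapped for each of them, with log2 differences of -0.10 (PGD, limma adjusted p = 0.695), -0.10 (TALDO1, 0.812) and -0.14 (TKT, 0.709).

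PGM1, the phosphoglucomutase that links glucose phosphate to glycogen, was listed at 0 in all 6 libraries and was not tested. A count of 0 allows up to 3 reads, which is 0.0164 to 0.0194 TPM in K700E libraries and 0.0150 to 0.0199 TPM in WT libraries, for counting error only and for independent reads. Whether reads were independent was not tested. Genes with 2 reads outnumbered genes with 1 read in every library, at 3203 and 1124 in K700E replicate 1. Its family member PGM2 had 90.9, 59.3 and 52.7 TPM in K700E libraries, against 49.6, 34.2 and 40.2 TPM in WT libraries. PGM2 did not overlap between groups and did not pass the test (limma adjusted p = 0.218).

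**Figure D3:**
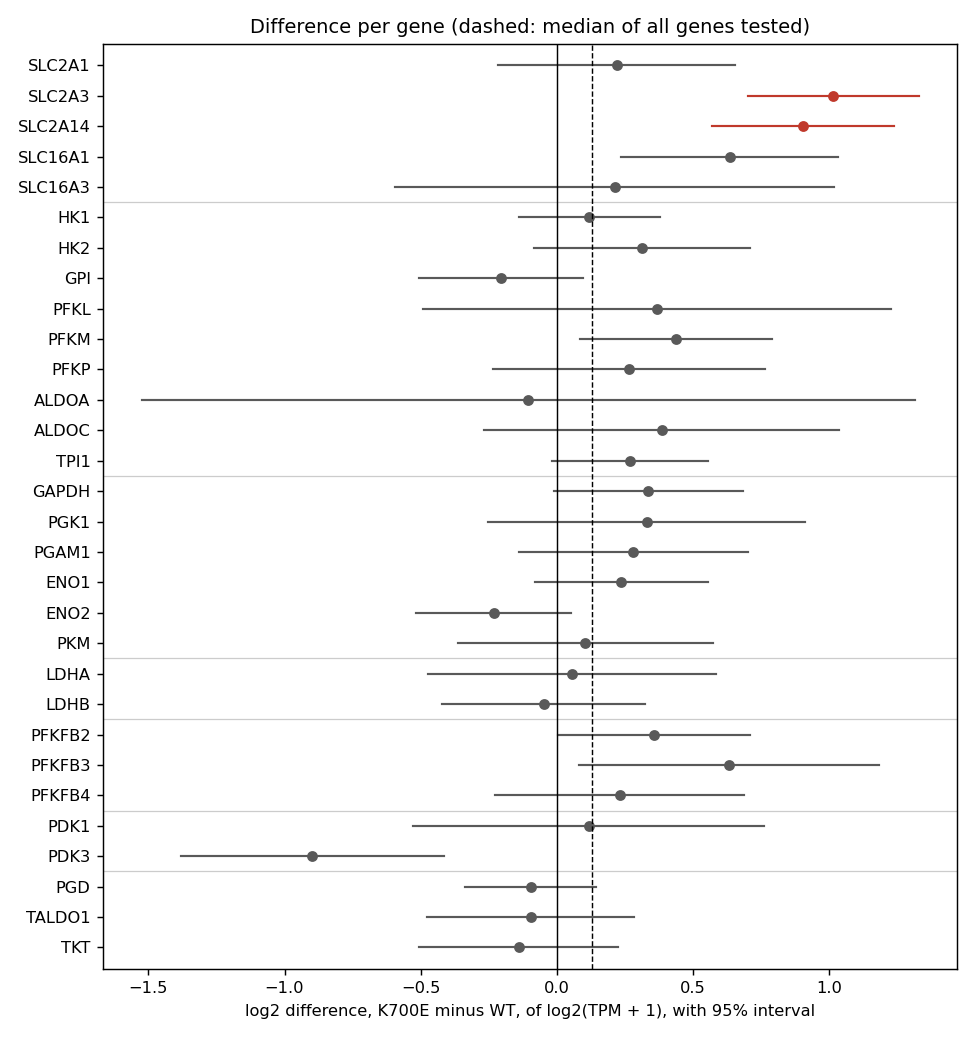
Log2 difference on log2(TPM + 1), K700E minus WT, with its 95% interval for the 30 tested members, ordered by role; red marks the 2 called genes and the dashed line is the median of all tested genes. The intervals of SLC2A3 and SLC2A14 lie well above 0 and most others include 0.

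Among all 30 tested members, 22 had a log2 difference above 0, against 69.3% of all tested genes, and 18 lay above the median gene. The median was 0.23, against 0.13 for all tested genes. In 11 of 30 members the groups did not overlap, against 24.0% of tested genes. In 9 of 30 members all K700E libraries were above all WT libraries, against a background of 19.0% of tested genes. In 2 of 30, ENO2 and PDK3, all K700E libraries were below, against 4.99%, and PDK3 was tested only through its WT level. With SLC2A3 and SLC2A14 taken as 1 gene, 8 of 29 were above and 2 below. Scaling bears on such counts: with median-ratio scaling the median of all genes was -0.0017 and the members' median 0.11. With it, 5 of 30 members were above (11.0% of all tested genes) and 4 below (9.95%). The 13 members on a list of hypoxia-responsive genes had a median log2 difference of 0.23, and the 17 tested members outside it had 0.27.

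Summed over all 31 genes, the members took 16146, 13439 and 13899 TPM in K700E libraries, against 12987, 11616 and 13322 TPM in WT libraries. On TPM as deposited the sums did not overlap (14494 ± 1449 TPM in K700E, 12642 ± 904 TPM in WT, SD, n = 3 each; exact two-sided permutation p = 0.1, adjusted p = 0.167 over 10 sums). Without SLC2A3 and SLC2A14 they did overlap, at 15603, 12927 and 13481 TPM in K700E and 12735, 11383 and 13084 TPM in WT (exact permutation p = 0.2). The separation of all 31 also ended with scaling: by the trimmed mean of M values, an alternative added after the data were seen, the sums were 14325, 13080.3 and 13665 in K700E and 13087, 12840.2 and 14086 in WT, and overlapped.

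By role, the transport members summed to 1032, 904 and 803 TPM in K700E libraries, against 573, 531 and 557 TPM in WT libraries, a ratio of means of 1.65. This sum includes SLC2A3, with means of 478 TPM in K700E and 235 TPM in WT, and SLC2A14. It therefore does not stand apart from their calls, and a transport sum without them was not computed. Of the other transport members, SLC16A1 did not overlap between groups, while SLC2A1 and SLC16A3 did. The lower glycolysis members summed to 9469.7, 7309.7 and 7475 TPM in K700E libraries, against 6724, 6309 and 7236 TPM in WT libraries. Upper glycolysis summed to 2163, 1987 and 2130.3 TPM in K700E and 1820.4, 1732 and 1963 TPM in WT. The PFKFB enzymes summed to 100.5, 100.3 and 117 TPM in K700E and 91.1, 69.5 and 91.7 TPM in WT. On TPM as deposited, all 4 sums were higher in every K700E library than in any WT library. With median-ratio scaling or the trimmed mean of M values, added after the data were seen, the transport sum still did not overlap (782 to 942 in K700E and 575 to 587 in WT by median ratio), but the other 3 sums did. For these 4 roles the exact permutation p on TPM as deposited was 0.1, the smallest possible, and the adjusted p was 0.167. Lactate dehydrogenase, the pyruvate dehydrogenase kinases and the pentose phosphate enzymes overlapped (exact permutation p = 1, 0.8 and 0.3).

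**Figure D4:**
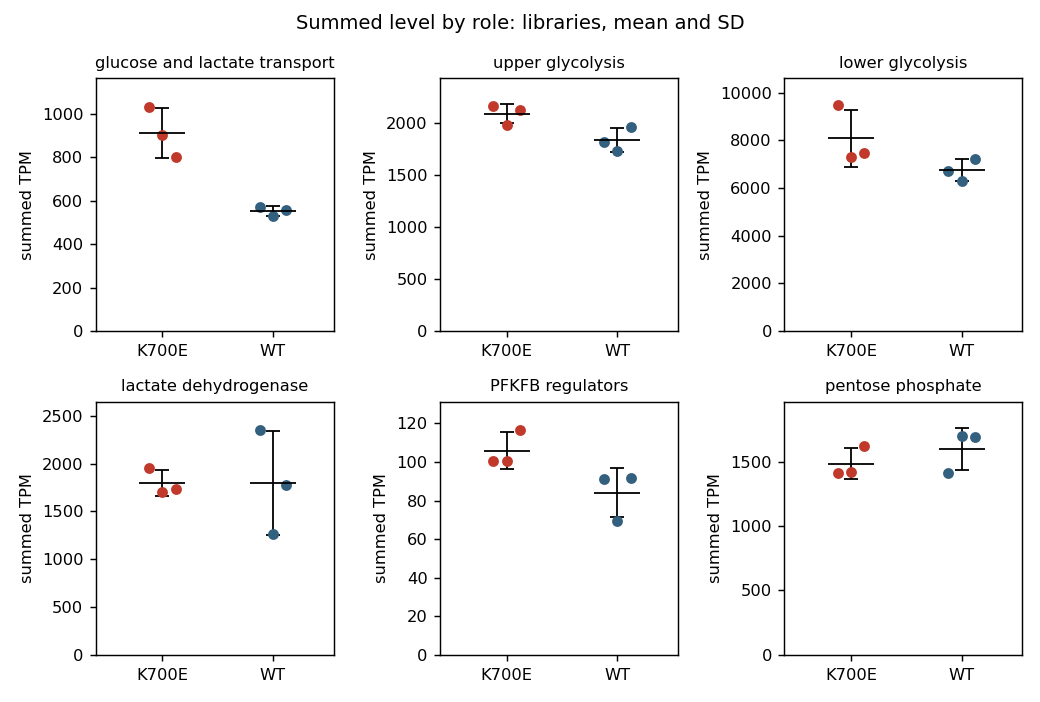
Summed TPM per library for 6 of the roles, K700E left of WT; points are libraries, the horizontal mark is the group mean with its SD, and each panel has its own linear axis from 0. On TPM as deposited, transport, which includes SLC2A3 and SLC2A14, separates widely. Upper and lower glycolysis and the PFKFB enzymes separate by less and overlap under both other scalings. Lactate dehydrogenase and the pentose phosphate enzymes overlap.

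Of the isozyme shares, HK2 also separated, at 16.5%, 13.2% and 13.3% of summed HK1 and HK2 TPM in K700E, against 13.02%, 12.3% and 12.6% in WT (exact two-sided permutation p = 0.1, adjusted p = 0.433 over 13 shares). The remaining shares, of the phosphofructokinase subunits, ALDOC, LDHB, SLC16A3 and the PFKFB enzymes, overlapped between groups with exact permutation p from 0.2 to 1.

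WT replicates 1 and 2 differed along GC content, and K700E libraries were not compared with each other in this way. Across the 30 tested members, whose transcripts hold 43.1% to 65.6% G and C, the log2 ratio of WT replicate 2 over WT replicate 1 went with GC at a Pearson r of 0.635 and a Spearman rho of 0.641, and across 15114 genes at an r of 0.670. These correlations are across genes of the same pair of libraries and describe those libraries. WT replicate 3 was the middle WT value in 19 of the 30. In 18 of 30 members the spread from lowest to highest WT library was larger than the ratio between the group means, among them LDHA, PGK1, ALDOA, ALDOC and PFKL. SLC2A3 and SLC2A14 were not among them. Such spread was not particular to WT. In 13 of 30 members the spread from lowest to highest library was larger in WT than in K700E. After the GC correction, the log2 difference of SLC2A3 was 0.88 (limma adjusted p = 0.0104) and that of SLC2A14 was 0.77 (0.0148).

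**Figure D5:**
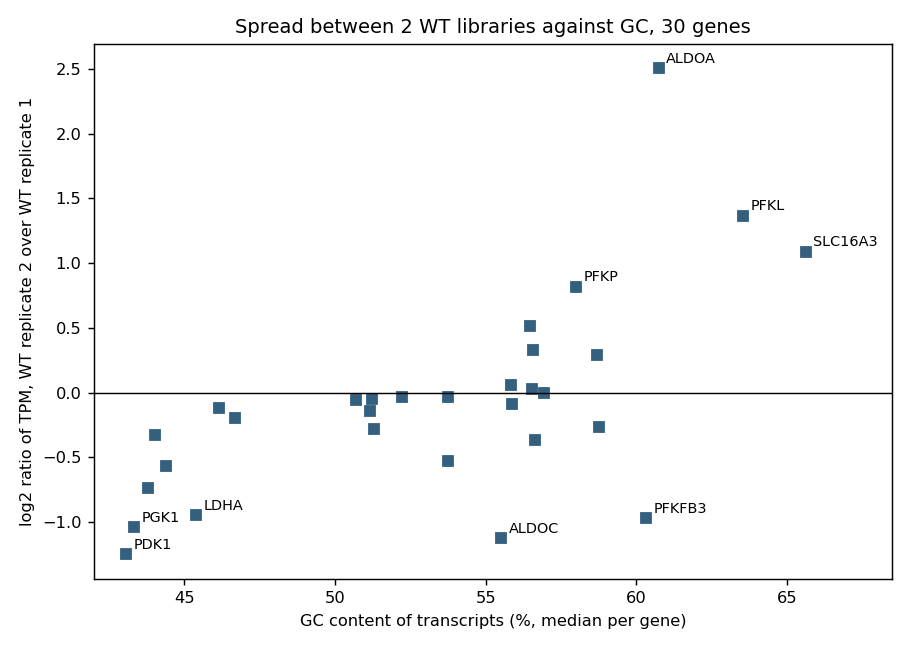
Log2 ratio of WT replicate 2 over WT replicate 1 (vertical axis) against transcript GC percent (horizontal axis) for the 30 tested members, with some points named. Members with low GC such as PDK1 and LDHA lie below 0, and members with high GC such as PFKL and SLC16A3 lie above, while ALDOC and PFKFB3 lie below 0 among the members of higher GC.

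Many of these genes also share a short promoter motif that the choice by name did not use. ACGTG is the core bound by hypoxia-inducible factors, and the palindrome CACGTG, which holds it on both strands, is the E-box bound by MYC. The 250 bases upstream of each start in the RefSeq promoter table (GRCh38.p14) were searched for ACGTG on both strands, counting CACGTG on each strand. Of 28 members with an entry, 18 (64.3%) had it in at least 1 promoter, against 5935 of 27305 genes (21.7%). Members had more promoters per gene in this search (56 for 28 members, against 35116 for 27305 genes). The per-gene shares are therefore not alike in the number of windows searched. Per promoter the share was 37.5% of 56 for members and 18.5% of 35116 in all. PFKFB2, SLC16A1 and SLC2A3 had no entry. The HK2 promoter at chr2:74834920-74835169 (plus strand) is shown as an example. It holds the motif in 4 counted matches, while an LDHA promoter holds 5. Both CACGTG copies of HK2 are in capitals.
HK2: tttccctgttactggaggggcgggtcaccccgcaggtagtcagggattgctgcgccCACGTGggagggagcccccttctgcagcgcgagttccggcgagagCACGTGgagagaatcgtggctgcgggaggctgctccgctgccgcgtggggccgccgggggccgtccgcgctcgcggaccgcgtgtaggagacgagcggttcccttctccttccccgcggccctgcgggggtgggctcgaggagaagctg
A match describes the letters in this window and not a bound site.

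The wider pathway, taken from lists of further isozymes and carriers, gave no call by limma: 0 of 5 tested glucose and fructose transporters, 0 of 3 monocarboxylate carriers and chaperones, 0 of 5 glycolytic isozymes and 0 of 9 pentose phosphate enzymes. With 1.38% of all tested genes called, 0 calls in lists this short say little about them. At an unadjusted p under 0.05 there were 0, 0, 1 and 2 genes, against 16.5% of all tested genes. TKTL1, a transketolase-like gene, had 37.3, 40.0 and 7.13 TPM in K700E libraries, against 6.20, 0.833 and 3.73 TPM in WT libraries. The groups of TKTL1 did not overlap, but K700E replicate 3 lay near WT replicate 1, and the log2 difference, 2.56 with an SE of 0.72, did not pass (limma adjusted p = 0.144). PKLR, the pyruvate kinase of liver and red cells, had 22.6, 32.9 and 49.3 TPM in K700E libraries, against 76.5, 51.7 and 80.9 TPM in WT libraries. PKLR also did not overlap and did not pass (log2 difference -1.02, SE 0.30, limma adjusted p = 0.155). PRPS1, which makes the ribose donor for nucleotides, had 159, 147 and 164 TPM in K700E and 134, 90.1 and 109.6 TPM in WT (limma adjusted p = 0.192). Among further glucose carriers, SLC2A10 had 5.485, 2.035 and 4.545 TPM in K700E and 2.33, 2.06 and 2.55 TPM in WT, and overlapped.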

How the data were processed

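Sequencing libraries for mRNA were made from K562 RNA, per the labels' protocols. The authors deposited TPM per gene in a table per genotype. Per the submitters' processing notes, cutadapt 2.10, TopHat2 2.1, featureCounts 2.0.1 and DESeq2 were used with GRCh37 (hg19). The column names of the WT table have the form STAR gives, per the file headers, so its aligner is not settled. No source used here names the aligner or strand setting of the K700E table. A difference in processing between the tables would coincide with genotype and cannot be told apart from it.

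Both tables listed the same 62111 gene IDs, of which 58604 (94.4%) matched a symbol. TPM was multiplied by gene length and divided by the smallest such product above 0 in the same library. This gave whole numbers for 100% of values above 0, within a tolerance of 0.01. They were taken as reads, on the assumption that the smallest product was 1 read. A limma 3.58.1 fit in R 4.3.3 was run on log2(TPM + 1) of genes averaging 1 TPM or more (empirical Bayes with trend, genotype as sole term, all 6 libraries) with two-sided Benjamini-Hochberg adjusted p over all 15493 genes at 0.05. Sums and shares were compared by exact permutation in scipy 1.17.1. The members and lists were chosen with earlier results of these data known. Values are given for every tested member, with full statistics for called members and the 8 smallest p; of other lists, called genes and at most 2 genes each are named. PGM1 neighbours were chosen after their values were seen. The alternatives were other pseudocounts, filters and scalings, limma without trend, and limma-voom on the recovered reads. Others were the pair SLC2A3 and SLC2A14 summed, omission of each library and a block for the replicate number. For the isozyme shares only, further isozymes, where listed, were added to the total that the share is taken of. A loess correction on GC (97.7% of tested genes had a value), with and without WT replicate 3, was added after the data were seen. The fit was tested on simulated data. GENCODE and RefSeq tables on GRCh38 were joined by gene ID or symbol only.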

Additional observations from a re-analysis of the deposited data

How the results depend on the processing

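The 2 members called higher became 0 with no filter on low values, 0 with the GC correction without WT replicate 3, 1 with SLC2A3 and SLC2A14 summed, 3 with the GC correction (SLC16A1 added), and 0 to 2 when each library was left out in turn. With no member called, limma still gave SLC2A3 an adjusted p of 0.0693 with no filter. The 0 called lower became 1 with the GC correction (PDK3, which passed the filter on low values only through WT). The labels do not say whether the replicate numbers pair the libraries. Deviations of same-numbered libraries correlated at 0.281, -0.192 and 0.299. The highest correlation was 0.428, between K700E replicate 3 and WT replicate 2. The lowest was -0.475, between K700E replicate 3 and WT replicate 1. These values cannot settle pairing, since deviations within a group sum to 0 and so depend on each other. With the replicate number as a block, 0 members were called (SLC2A3 adjusted p = 0.0544, SLC2A14 0.0923). The cause of these changes was not tested.

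Of 30 members, 21 kept their direction in every alternative run for them (18, but 17 for SLC2A14 and 16 for PDK3) and 9 did not, none of them called. Under median-ratio scaling, trimmed mean of M values scaling and the GC correction, the log2 differences turned to -0.025, -0.038 and -0.018 (HK1), -0.039, -0.052 and -0.031 (PKM), -0.087, -0.10 and -0.074 (LDHA), and -0.013, -0.025 and -0.0039 (PDK1). With the GC correction without WT replicate 3 they were -0.011 (HK1), 0.034 (ALDOA), -0.016 (PKM) and -0.055 (LDHA). Leaving out each library gave -0.83 to 0.31 (ALDOA), -0.16 to 0.50 (SLC16A3), -0.034 to 0.64 (PFKL), -0.016 to 0.34 (PKM), -0.19 to 0.29 (LDHA), -0.18 to 0.040 (LDHB), -0.17 to 0.39 (PDK1) and -0.24 to 0.013 (TALDO1). It gave sums differing by -259.98 to 280.6 TPM (lactate dehydrogenase) and -3.28 to 1.60 TPM (pyruvate dehydrogenase kinases). Shares differed by -3.85 to 5.04 points (PFKL), -2.13 to 4.16 (PFKM), -3.35 to 0.233 (PFKP), -1.47 to 0.325 (LDHB), -0.527 to 0.155 (SLC16A3), -1.75 to 4.001 (PFKFB2) and -0.0995 to 0.0319 (SLC2A14). The lactate dehydrogenase sum differed by -165 TPM with median-ratio scaling and -178 TPM with the trimmed mean of M values. Every tested member had at least 157 reads in each library.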

Other observations

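Pathways next to glycolysis gave no call by limma in the same comparison: 0 of 9 tested genes of the pyruvate dehydrogenase complex and its regulators, 0 of 15 of glycogen metabolism, 0 of 20 of the citric acid cycle and 0 of 15 regulators of glycolysis genes. Of all tested genes 1.38% were called, so 0 calls in lists of this length say little about these pathways. At an unadjusted p under 0.05 there were 1, 1, 0 and 3, against 16.5% of all tested genes. PDK2, another pyruvate dehydrogenase kinase, had 4.93, 5.51 and 5.99 TPM in K700E libraries, against 2.56, 3.31 and 3.32 TPM in WT libraries, with no overlap (log2 difference 0.68, SE 0.16, limma adjusted p = 0.102). Its log2 difference was above 0, while that of PDK3 was below 0. EGLN3, an oxygen-sensing hydroxylase that is itself induced in hypoxia, had 67.8, 37.4 and 42.7 TPM in K700E libraries, against 30.3, 21.0 and 24.6 TPM in WT libraries (log2 difference 0.90, SE 0.25, limma adjusted p = 0.135). MLXIP, a glucose-sensing transcription factor, had 55.7, 61.6 and 59.5 TPM in K700E libraries, against 40.7, 46.4 and 48.8 TPM in WT libraries (limma adjusted p = 0.216). UGP2, which makes the sugar donor for glycogen, had 112, 101 and 101 TPM in K700E libraries, against 96.3, 74.6 and 81.2 TPM in WT libraries (limma adjusted p = 0.312). None of these 4 genes overlapped between groups and none passed the test. In the citric acid cycle, DLST had 122, 73.6 and 70.4 TPM in K700E and 127, 106 and 118 TPM in WT, and overlapped.

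PGM1 at 0 in all 6 libraries stands beside expressed and silent neighbours on GRCh37 chromosome 1. EFCAB7, upstream of it, had 8.15, 6.04 and 5.30 TPM in K700E libraries and 7.59, 3.97 and 5.54 TPM in WT libraries. ROR1, downstream, was at most 0.0105 TPM in any library.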
